A study of Mus musculus with 18 samples.

Results

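The genes described here are 10 immediate early genes, namely *Egr1*, *Egr2* and *Egr3* of the EGR family, *Fos* and *Fosb* of the FOS family, *Jun*, *Junb* and *Jund* of the JUN family, and *Ier2* and *Btg2*. They were taken by symbol from the expression tables of 3 bone marrow progenitor populations, where they are 10 of the 19919 genes listed in any table, and all 10 are in each table. They were chosen from results of these same libraries, so their differences between genotypes are descriptions. How many of the 10 passed a threshold in the fit over all genes is given beside the share of all genes that did, and no p-value is given for any of them.

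Immediate early genes are transcribed within minutes of a stimulus, from factors that already sit in the cell, and need no new protein to be made. Growth factors, stress and the handling of tissue all act on them through MAP kinases, which activate factors such as SRF with its ELK partners, and CREB. FOS proteins pair with JUN proteins to form the AP-1 transcription factor, EGR proteins are zinc finger factors that bind GC-rich sites, and several products of the same response, among them the DUSP phosphatases and the RNA-binding protein ZFP36, shut it down again. In blood progenitors *Egr1* is known for restraining the proliferation of stem cells, and JUN and FOS proteins for their part in myeloid differentiation.

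Poly-A RNA was sequenced from sorted MPPs (multipotent progenitors), CD115- CDPs (common dendritic cell progenitors that lack the receptor CD115) and CLPs (common lymphoid progenitors), with 3 WT and 3 KO libraries for each population, 18 in all. The WT mice were *Trim33* fl/fl and the KO mice *Trim33* fl/fl Cre-ER T2, all C57BL/6 and between 6 and 8 weeks old, and per the methods of the study tamoxifen was given at 2 mg on each of 5 days, with 7 further days before analysis. Tamoxifen lets Cre-ER T2 cut out exons of *Trim33* in cells of the whole body, which shifts the reading frame, and since the WT mice carry no Cre, the loss of *Trim33* and the activity of Cre cannot be told apart. TRIM33 is a chromatin protein of the TIF1 family, and the study compared the genotypes to see which genes of these progenitors change without it.

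The values are FPKM, fragment numbers scaled to the length of the transcript and to the mapped reads of the library, so that levels can be set side by side between genes. Depth, estimated from the steps between low FPKM values, was 19.4 to 21.4 M mapped reads per library. *Trim33* itself was 8.78 to 10.42 FPKM in WT MPPs and 9.71, 11.66 and 4.80 FPKM in KO replicates 1, 2 and 3, which overlap. FPKM takes reads over the whole gene, exons outside the deletion included, so it checks the deletion poorly, and the libraries are called KO-labelled below. Of the 16 genes listed for the sort, *Flt3* and *Csf1r* are given here. By the limma threshold used below, 3 of 14 tested were called lower in KO-labelled MPPs, where 1.32% of all tested genes were. In CD115- CDPs it was 1 of 13 (0.0654% of all) and in CLPs 3 of 13 (2.84%), with 0 called higher in any population. With the replicate number as a block, 2 were called lower and 1 higher in CD115- CDPs (1.46% and 0.376% of all). At an unadjusted p under 0.05 in limma, 5 were lower and 3 higher in CLPs (16.2% and 13.4% of all). Summed over the list, CLPs had 1693 to 1775 FPKM in WT and 2524 to 2977 FPKM in KO-labelled libraries. *Flt3*, which all 3 gates require, was between 146.8 and 329.52 FPKM in every library. *Csf1r*, which encodes CD115, was still 39.11 to 136.77 FPKM in WT CD115- CDPs and 9.24 to 37.18 FPKM in the KO-labelled ones. The methods call replicates biological, and how many mice gave each library is not given in the sources used here, so the p-values below measure the spread between these libraries.

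The promoters of 3 of the genes are shown because they hold letters of the sites through which this response is known to be switched on. RefSeq promoters of GRCm38.p6, which span from 250 bases before to 50 bases after an annotated start, were found for 7 of the 10 genes. *Egr1*, *Egr3* and *Ier2* had no entry. Below are the 250 bases before the start, 5′ to 3′ on the strand of the gene, for *Egr2* (chr10:67537619-67537868, plus strand, 1 of several annotated starts), *Fos* (chr12:85473640-85473889, plus strand) and *Btg2* (chr1:134079156-134079405, minus strand). Capitals mark a CArG box, the site of SRF, and TGACG on either strand, the core of the CREB site, in *Egr2*. They mark TGACG and TATAAA in *Fos*, and TGACGTCA, the full CREB site, and GCGNGGGCG in *Btg2*. GCGNGGGCG is a looser form of the EGR site that takes any base at N, which is C in *Btg2*.
Egr2: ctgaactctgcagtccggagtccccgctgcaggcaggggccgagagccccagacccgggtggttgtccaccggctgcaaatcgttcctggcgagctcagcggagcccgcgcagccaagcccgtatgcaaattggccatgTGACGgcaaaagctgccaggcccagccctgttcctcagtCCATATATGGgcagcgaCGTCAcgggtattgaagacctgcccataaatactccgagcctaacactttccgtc
Fos: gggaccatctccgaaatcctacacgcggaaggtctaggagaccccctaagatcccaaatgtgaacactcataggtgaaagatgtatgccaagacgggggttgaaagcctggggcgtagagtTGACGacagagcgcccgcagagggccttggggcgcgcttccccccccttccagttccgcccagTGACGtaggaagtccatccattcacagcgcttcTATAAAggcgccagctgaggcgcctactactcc
Btg2: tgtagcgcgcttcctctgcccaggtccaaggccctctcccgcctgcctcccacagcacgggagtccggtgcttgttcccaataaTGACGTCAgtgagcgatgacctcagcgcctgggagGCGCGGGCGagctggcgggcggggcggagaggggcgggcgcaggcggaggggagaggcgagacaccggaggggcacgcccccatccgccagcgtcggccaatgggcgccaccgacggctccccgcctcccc

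Of the motifs searched on both strands of the whole windows, TGACG was present in 5 of the 7 genes (*Btg2*, *Egr2*, *Fos*, *Fosb* and *Junb*) and in 20.8% of all 32851 promoters. A gene counts here if any of its windows holds the motif, whereas the percentages are over single windows, so they are not in like units. The CArG box was in 1 of the 7 (*Egr2*, at -72 to -63 from the start shown) and in 1.63% of all. TGACGTCA, which contains TGACG, was in *Btg2* (-166 to -159) and in 1.79% of all, and GCGNGGGCG was in *Btg2* and *Fosb* and in 5.55% of all. TATAAA was in *Fos* (-33 to -28) and *Junb* and in 13.6% of all. TGANTCA, a looser form of the AP-1 site that takes any base at N, was in 0 of the 7 and in 7.81% of all promoters. Sites further upstream than these windows, and the genes without an entry, were not searched. The motifs are letters in these windows, and binding was not measured in these libraries.

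In WT MPPs the 10 genes together held 1.68% ± 0.132 of all FPKM of a library (SD, n = 3), against 0.582% ± 0.0706 in KO-labelled MPPs. In CD115- CDPs the shares were 0.712% ± 0.165 in WT and 0.565% ± 0.0656 in KO-labelled libraries, and in CLPs 1.23% ± 0.384 and 1.003% ± 0.333 (SD, n = 3 each). The libraries of both genotypes overlapped in CD115- CDPs and in CLPs and did not in MPPs, where the lowest WT library had 1.54% and the highest KO-labelled library 0.649%.

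**Figure D1:**
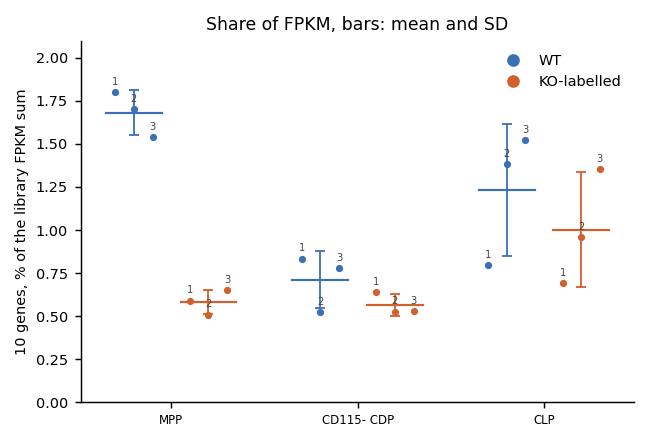
Share of each library's summed FPKM held by the 10 genes, in percent, for WT (blue) and KO-labelled (orange) libraries of each population. Points are libraries with their replicate number, horizontal lines the mean and bars the SD over 3 libraries. WT MPPs lie between 1.54% and 1.80%, above every other library, and the libraries numbered 1 are the lowest of both genotypes in CLPs.

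Among the 10 genes in WT MPPs, *Fos* was the most abundant at 2593 ± 127 FPKM (SD, n = 3), and by FPKM it stood at place 10, 14 and 19 of the 19710 genes listed in the 3 libraries. *Jun* (1621 ± 111 FPKM) and *Fosb* (1133 ± 98.0 FPKM) followed, and the libraries of these 3 genes did not overlap. *Junb*, *Ier2*, *Egr1* and *Jund* had means of 728.7 to 886.5 FPKM and overlapped with their neighbours in this order. *Btg2* was at 209.7 ± 11.4 FPKM, while *Egr3* (10.99 ± 3.36 FPKM) and *Egr2* (4.20 ± 0.525 FPKM) were far below the rest. *Fos* also had the highest mean in WT CD115- CDPs and in both genotypes of CLPs, but *Fosb* had the highest in KO-labelled MPPs (608.4 ± 74.5 FPKM) and *Junb* in KO-labelled CD115- CDPs (628.6 ± 229 FPKM).

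WT levels of 9 of the 10 genes had the order MPP, CLP, CD115- CDP from high to low. The tables of the populations were made separately, so the order is given without a test. *Egr1* was 6.98-fold higher in MPPs than in CD115- CDPs by the ratio of means, with no overlap between any pair of neighbours in the order. For *Fos* the ratio was 3.48 and for *Jun* 3.04. WT MPPs lay above all WT CLPs for *Fos*, *Junb* and *Ier2* as well as *Egr1*, while the neighbouring populations overlapped for *Fosb*, *Jund*, *Jun* and *Egr2*. *Egr3* was the exception, highest in CD115- CDPs (20.15 ± 15.2 FPKM), then in MPPs, and lowest in CLPs (6.92 ± 2.34 FPKM), with overlap at each step. In KO-labelled libraries MPPs were first for none of the 10 genes. CLPs had the highest mean for *Egr1*, *Egr2*, *Fos*, *Fosb*, *Jun* and *Btg2*, and CD115- CDPs for the others, and neighbours in these orders overlapped at each step except between MPPs and CD115- CDPs for *Egr1*.

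**Figure D2:**
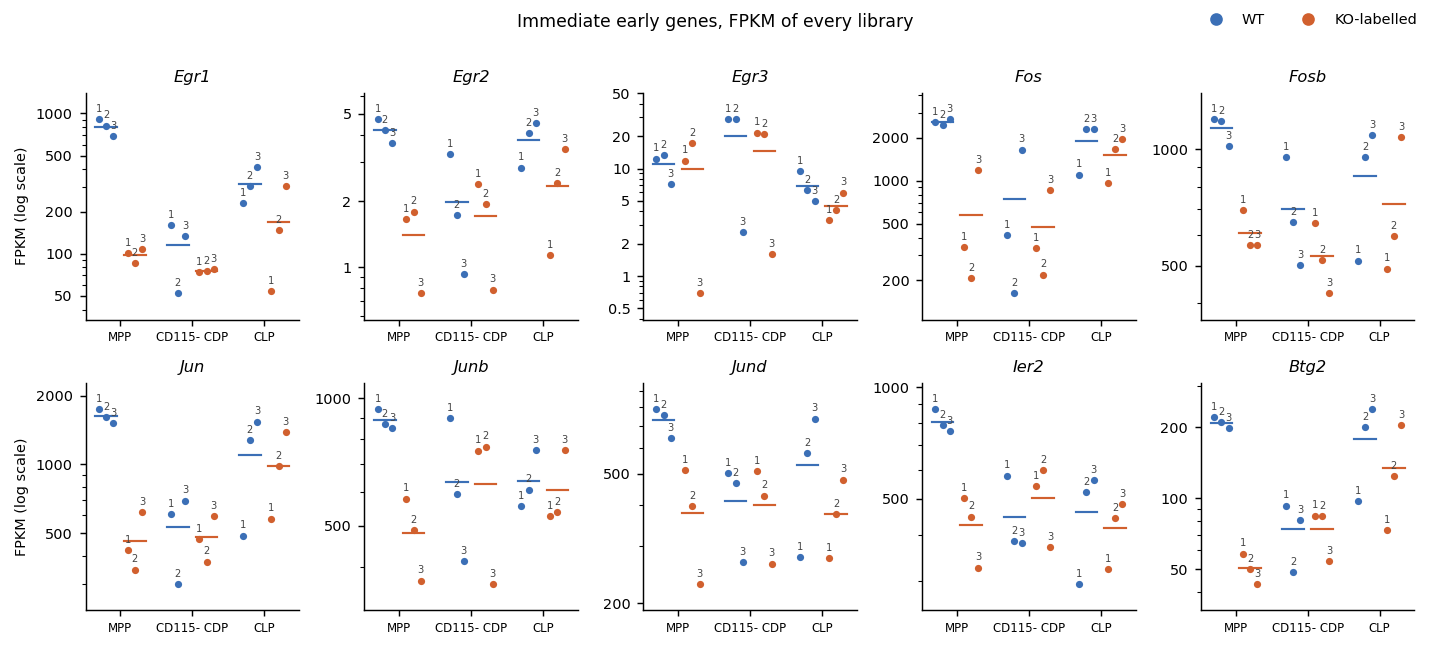
FPKM of each of the 10 genes in every library, on a log scale that differs between panels, for WT (blue) and KO-labelled (orange) libraries with their replicate numbers; horizontal lines are means of 3 libraries. In MPPs all KO-labelled points lie below all WT points except for *Egr3*, while in CD115- CDPs and CLPs the genotypes overlap for every gene. Libraries with the same number often sit at similar places there, but not, for example, for *Egr1* and *Btg2* in CD115- CDPs or *Egr3* in CLPs.

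In MPPs the mean of each of the 10 genes was lower in the KO-labelled libraries, by 8.23-fold for *Egr1*, 4.48-fold for *Fos*, 4.15-fold for *Btg2* and 3.5-fold for *Jun*, and by 1.10- to 2.99-fold for the others. The genotypes did not overlap for 9 of the 10, each with WT above, where this held for 23.3% of the 12372 tested genes. On the scale of log2(FPKM + 1), the median log2 fold change was -1.07 over the 10 genes and -0.11 over all tested genes. A gene is called where limma gave an adjusted p no higher than 0.05 and a log2 fold change of 1 or more in size. Of the 10, 4 were called lower (*Egr1*, *Egr2*, *Jun* and *Btg2*) and 0 higher, where 1.32% of tested genes were called lower and 0.162% higher. Since the 10 genes were chosen with these differences known, nothing is read from these counts. At an unadjusted p under 0.05 the count was 9 lower and 0 higher, where 19.8% of tested genes were lower and 4.45% higher. The number called lower went from 4 to 2 (*Egr1* and *Btg2*) without WT replicate 1, 2 or 3, to 5 without KO replicate 1, to 3 without KO replicate 2, and without KO replicate 3 it was 4 with *Fos* in place of *Egr2*. Over all 12372 tested genes the number called lower went from 163 to 51, 53 and 56 without WT replicate 1, 2 and 3. Without KO replicate 1, 2 and 3 it was 124, 86 and 548.

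The EGR genes encode factors that bind GC-rich promoters, and they differed among themselves. *Egr1* was 914.86, 818.11 and 688.71 FPKM in WT replicates 1, 2 and 3, against 100.53, 86.09 and 107.54 FPKM in the KO-labelled ones. The KO-labelled values lie close together and far below the WT values, a log2 fold change of -3.02 (standard error 0.132), the 8th lowest of all tested genes. *Egr2* (chromosome 10 from 67534469 to 67542188 on GRCm38), known for its role in T cells and in myelination, was 4.73, 4.19 and 3.68 FPKM in WT against 1.66, 1.79 and 0.76 FPKM in KO-labelled libraries. It too was lower in each KO-labelled library, a log2 fold change of -1.14 (standard error 0.205), at a level that corresponds to 46 reads in KO replicate 3. *Egr3* (chromosome 14 from 70077317 to 70082613) was 12.37, 13.43 and 7.16 FPKM in WT against 11.86, 17.32 and 0.69 FPKM in KO-labelled libraries. The groups overlapped, KO replicate 2 was the highest of the 6 libraries and KO replicate 3 the lowest, and the log2 fold change of -0.66 (standard error 0.858) turned to 0.40 without KO replicate 3.

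The FOS proteins, which need a JUN partner to bind DNA, differed in another way. *Fos* (chromosome 12 from 85473890 to 85477274) was 2589.97, 2467.71 and 2721.37 FPKM in WT against 343.62, 206.65 and 1187.86 FPKM in KO-labelled libraries. All KO-labelled libraries were lower, but KO replicate 3 had several times the level of the other KO-labelled libraries, so the log2 fold change of -2.56 has a standard error of 0.582. It was -3.28 and called lower without KO replicate 3, and -2.02 and not called without KO replicate 2. *Fosb* (chromosome 7 from 19302696 to 19310118) was 1197.95, 1181.27 and 1020.50 FPKM in WT against 694.52, 565.56 and 565.26 FPKM in KO-labelled libraries. Here KO replicate 3 was level with KO replicate 2. The difference of *Fosb* was -0.90 on the log2 scale (standard error 0.112).

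Of the JUN proteins, *Jun* (chromosome 4 from 95049036 to 95052222), the main partner of FOS, was 1739.52, 1605.10 and 1519.19 FPKM in WT against 422.00, 347.42 and 620.41 FPKM in KO-labelled libraries. As for *Fos*, KO replicate 3 was the highest KO-labelled library. The difference of *Jun* was -1.85 on the log2 scale (standard error 0.203). *Junb* (chromosome 8 from 84976909 to 84978748), which can oppose *Jun* in proliferation, was 940.38, 868.38 and 850.74 FPKM in WT against 579.58, 489.20 and 371.48 FPKM in KO-labelled libraries. *Jund* (chromosome 8 from 70697739 to 70700616), the JUN protein that many cells make without a stimulus, was 787.42, 756.91 and 641.67 FPKM in WT against 511.34, 397.12 and 229.14 FPKM in KO-labelled libraries. For both of these genes KO replicate 3 was instead the lowest library, with log2 fold changes of -0.91 (standard error 0.160) for *Junb* and -1.01 (standard error 0.279) for *Jund*.

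*Ier2* (chromosome 8 from 84661331 to 84662852), which encodes a nuclear protein of the early response, was 870.94, 790.75 and 761.67 FPKM in WT against 502.66, 447.87 and 326.22 FPKM in KO-labelled MPPs. *Btg2* (chromosome 1 from 134074865 to 134079155), an antiproliferative protein that is also a target of p53, was 220.63, 210.55 and 197.94 FPKM in WT against 58.13, 50.13 and 43.27 FPKM in KO-labelled libraries. Neither gene overlapped between the genotypes, and KO replicate 3 was the lowest library for both. The log2 fold changes were -0.94 (standard error 0.162) for *Ier2* and -2.04 (standard error 0.120) for *Btg2*.

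Lists of genes used as markers of other cell types were looked at beside this difference. The macrophage list holds *Csf1r*, also used above to check the sort, and which cells express the listed genes was not measured. In KO-labelled MPPs, 8 of 10 erythroid markers were called lower (limma), with sums of 543.7 to 571.0 FPKM in WT against 135.8 to 188.1 FPKM in KO-labelled libraries, and *Hba-a1* at 139.04 to 161.5 FPKM in WT against 0.29 to 4.06 FPKM in KO-labelled libraries. Of the macrophage markers 4 of 7 were called lower, with sums of 39.5 to 43.85 FPKM in WT against 16.83 to 19.5 FPKM in KO-labelled libraries, of the neutrophil markers 3 of 7 (3046 to 3164 and 1192 to 2089 FPKM), of the basophil and mast cell markers 4 of 4 (186.6 to 211.1 and 61.4 to 100.4 FPKM), and of the megakaryocyte markers 1 of 3 (19.65 to 22.54 and 8.32 to 10.78 FPKM). Of the B cell markers 0 of 5 and of the T cell markers 0 of 1 were called in either direction (limma; 4 lower among the B cell markers at an unadjusted p under 0.05). *Cd3e*, which defines T cells and was picked after its values were seen, was at most 0.41 FPKM in any MPP library. Their part in the levels of the immediate early genes was not tested, and fewer cells of a type cannot be told apart from less RNA per cell in these bulk libraries.

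**Figure D3:**
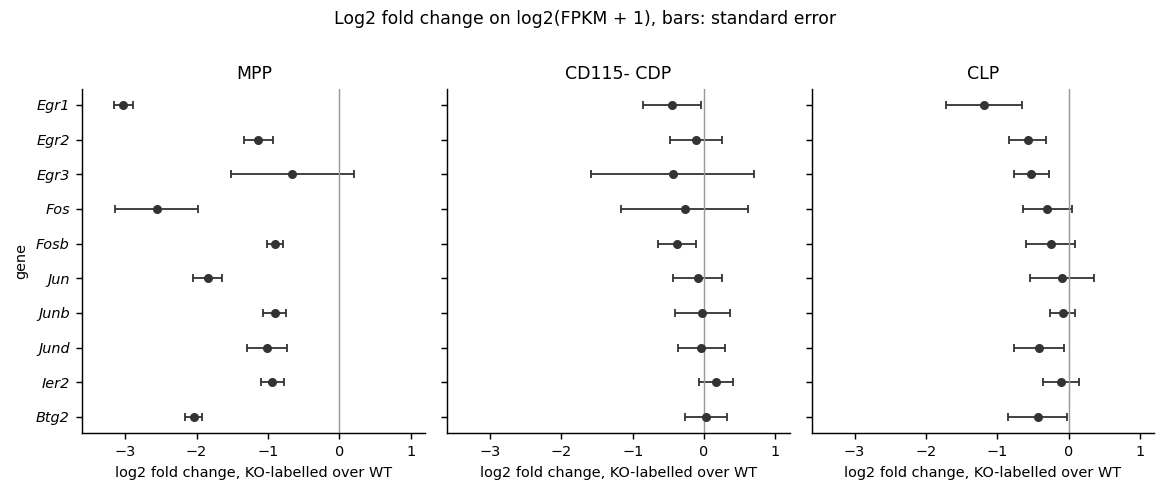
Log2 fold change of KO-labelled over WT libraries on log2(FPKM + 1) for the 10 genes in each population; points are estimates and bars standard errors from limma (3 against 3 libraries). In MPPs the values run from -3.02 for *Egr1* to -0.66 for *Egr3*, while in CD115- CDPs none of the 10 is below -0.45 and in CLPs *Egr1*, at -1.19, is the lowest.

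In CD115- CDPs the genotypes overlapped for all 10 genes. For some of the genes, such as *Fos* and *Egr3*, the libraries numbered 3 stood apart from those numbered 1 and 2 in both genotypes. The means were lower in KO-labelled libraries for 8 genes and higher for *Ier2* and *Btg2*, and the median log2 fold change was -0.10, against -0.07 over all 12229 tested genes. Under median ratio scaling *Junb* and *Jund* turned to log2 fold changes of 0.02 and 0.01, and after rescaling to TPM, which moved the median of all tested genes to -0.19, *Btg2* turned to -0.10. No gene of the 10 had all KO-labelled libraries below all WT libraries, which held for 10.6% of tested genes, and 0 were called in limma, where 0.0654% of tested genes were called lower and 0.0409% higher. At an unadjusted p under 0.05 the count was also 0, where 5.99% of tested genes were lower and 4.54% higher. Libraries with the same number deviate together here (correlations across genes of 0.44 to 0.79), while pairs with different numbers ran from -0.78 to 0.66. With the replicate number as a block 0 of the 10 were called, beside 1.46% of tested genes lower and 0.376% higher. The summed macrophage markers were 57.42 to 203.0 FPKM in WT against 19.73 to 65.62 FPKM in KO-labelled libraries with 0 of 4 called (limma) and 2 of 4 called lower with the replicate block, and the neutrophil markers were 464.6 to 3421 and 634.8 to 3081 FPKM with 0 of 7 called in either fit. Their part was not tested.

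*Fos* was 415.32, 162.37 and 1656.93 FPKM in WT against 337.28, 219.81 and 863.68 FPKM in KO-labelled CD115- CDPs, and *Egr3* 28.93, 28.96 and 2.57 FPKM in WT against 21.63, 20.88 and 1.60 FPKM in KO-labelled ones. Replicate 3 was thus the highest library of its genotype for *Fos* and the lowest for *Egr3*, and with the replicate block the standard error of the log2 fold change fell from 0.889 to 0.236 for *Fos* and from 1.14 to 0.104 for *Egr3*. Like *Egr3*, *Egr2*, *Fosb*, *Junb*, *Jund* and *Ier2* were lowest in replicate 3 of both genotypes, with *Junb* at 898.36, 595.17 and 413.68 FPKM in WT against 751.83, 769.00 and 364.97 FPKM in KO-labelled libraries. *Jun* had its highest value in replicate 3 and its lowest in replicate 2 of both genotypes, at 605.16, 300.94 and 695.99 FPKM in WT against 470.93, 376.48 and 593.04 FPKM in KO-labelled libraries. *Egr1* was 160.71, 52.21 and 133.98 FPKM in WT against 73.99, 75.36 and 78.00 FPKM in KO-labelled libraries, so its spread lay in the WT group. *Btg2* was 93.12, 48.55 and 80.53 FPKM in WT against 84.37, 84.18 and 54.02 FPKM in KO-labelled libraries, with the lowest library in a different replicate of each genotype.

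In CLPs all 10 genes had lower means in the KO-labelled libraries, yet the genotypes overlapped for all 10, and the median log2 fold change was -0.36, against 0.01 over the 12339 tested genes. The share of tested genes with all KO-labelled libraries below all WT libraries was 18.6%. Of the 10 genes 0 were called in limma, where 2.84% of tested genes were called lower and 0.673% higher. At an unadjusted p under 0.05 the count was also 0, where 16.2% of tested genes were lower and 13.4% higher. With the replicate block *Egr1* was called lower, at a log2 fold change of -1.19 with a standard error of 0.254 in place of 0.531, and 3.11% of tested genes were. The value rests on single libraries, since without the block it was -0.54 (not called) when KO replicate 1 was left out and -1.77 (called lower) when KO replicate 3 was. Of the macrophage markers 2 of 2 were called lower (50.23 to 75.73 FPKM in WT against 15.27 to 18.74 FPKM in KO-labelled libraries, summed over the list), and of the erythroid markers 3 of 7 (53.76 to 73.38 and 26.51 to 40.43 FPKM). The neutrophil sums were 331.6 to 911.7 and 201.7 to 359.1 FPKM, with 0 of 7 called (5 lower and 1 higher at an unadjusted p under 0.05, limma) and 6 of 7 called lower with the replicate block, as *Egr1* was. Their part was not tested.

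*Egr1* was 229.33, 303.96 and 416.78 FPKM in WT against 54.05, 146.92 and 304.52 FPKM in KO-labelled CLPs. Replicate by replicate the KO-labelled level was 0.236, 0.483 and 0.731 of the WT level, lower each time and least so in replicate 3. *Egr2* had ratios of 0.398, 0.591 and 0.767, from 2.84, 4.08 and 4.51 FPKM in WT. *Btg2* had ratios of 0.753, 0.621 and 0.856, and *Fos* of 0.870, 0.721 and 0.850. For these 4 genes the KO-labelled library was lower than the WT library of the same number in all 3 pairs. *Jun*, at 488.95, 1276.74 and 1540.89 FPKM in WT against 579.89, 987.59 and 1390.14 FPKM in KO-labelled libraries, was higher in KO replicate 1 and lower in the others. *Ier2* was likewise higher in KO replicate 1, *Egr3* and *Junb* in KO replicate 3, while *Fosb* and *Jund* were lower in each pair.

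The spread within a genotype followed the number in CLPs as well, but in another way than in CD115- CDPs. Replicate 1 was the lowest library of its genotype for 9 of the 10 genes in WT and for all 10 in KO-labelled CLPs, and replicate 3 the highest for 9 and for 10, with *Egr3* the exception in WT. *Jund*, for example, was 276.67, 577.73 and 738.22 FPKM in WT against 274.85, 375.13 and 479.07 FPKM in KO-labelled libraries. Over the 6 CLP libraries, after removal of the group means of log2(FPKM + 1), the correlation with *Fos* was 0.98 for *Jun*, 0.98 for *Ier2*, 0.97 for *Btg2* and 0.91 for *Fosb*. In MPPs *Fos* went with *Jun* (0.97) but against *Egr3* (-0.97), *Egr2* (-0.92) and *Ier2* (-0.82), and in CD115- CDPs with *Jun* (0.91) and against *Egr3* (-0.90) and *Jund* (-0.84). These correlations describe 6 libraries each and are given without a test. The correlations in MPPs rest largely on KO replicate 3, where *Fos* was 1187.86 FPKM against 343.62 and 206.65 FPKM in KO replicates 1 and 2. The SD of *Fos* was 4.89% of the mean in WT MPPs and 91.7% in KO-labelled MPPs.

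Ratios between some of the genes split the libraries in a way that did not follow the genotype in every population. The pairs shown are some of many possible pairs and were not set in advance. *Fos* over *Fosb* was 2.16, 2.09 and 2.67 in WT MPPs and 0.495, 0.365 and 2.101 in KO-labelled MPPs. In CD115- CDPs it was 0.434, 0.251 and 3.31 in WT and 0.523, 0.426 and 2.04 in KO-labelled libraries. The CLP libraries all had more *Fos* than *Fosb*, with ratios of 1.83 to 2.79. No library lay between 0.523 and 1.83, and the ratio separated libraries within both genotypes of CD115- CDPs and within KO-labelled MPPs. *Egr1* over *Egr3* put the same libraries low. It was 8.48 and 4.97 in KO replicates 1 and 2 of MPPs and 1.80 to 5.56 in the CD115- CDP libraries numbered 1 and 2, and 16.3 to 155.9 in all others.

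The heat shock gene *Hspa1a*, an inducible chaperone whose reads can be split with its near-identical copy *Hspa1b*, varied with these ratios except in 2 CLP libraries. It was 220.6, 203.08 and 195.51 FPKM in WT MPPs and 10.7, 1.88 and 116.76 FPKM in KO-labelled MPPs. In CD115- CDPs it was 17.91, 8.68 and 379.58 FPKM in WT against 17.5, 5.63 and 232.68 FPKM in KO-labelled libraries. In CLPs it was 10.56, 448.53 and 788.52 FPKM in WT against 29.98, 358.33 and 1067.87 FPKM in KO-labelled libraries. The libraries numbered 1 of the CLPs thus had low *Hspa1a* with a high *Fos* to *Fosb* ratio. Of the 14 heat shock genes, 0 were called in any population in either direction (limma), with 4 lower and 1 higher at an unadjusted p under 0.05 in MPPs, 0 and 3 in CD115- CDPs and 0 and 3 in CLPs. *Hspa1a* and *Hspa1b* were picked after their values were seen, and what sets the ratios was not tested.

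**Figure D4:**
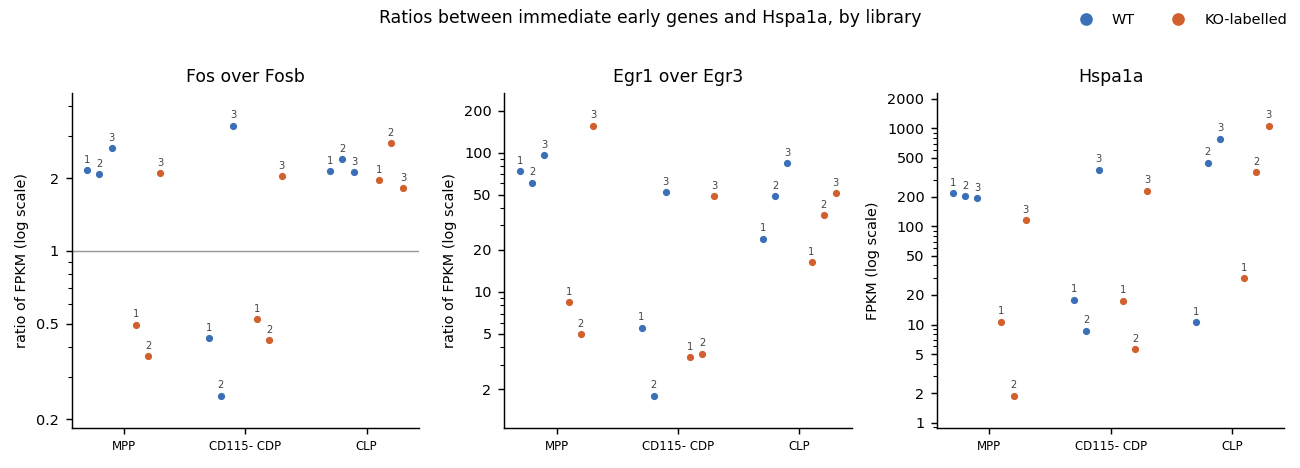
Ratio of *Fos* to *Fosb* FPKM (left), of *Egr1* to *Egr3* FPKM (middle) and *Hspa1a* FPKM (right) in every library, on log scales, for WT (blue) and KO-labelled (orange) libraries with their replicate numbers; the grey line marks a ratio of 1. KO replicates 1 and 2 of MPPs and replicates 1 and 2 of both genotypes of CD115- CDPs lie at 0.251 to 0.523 for *Fos* over *Fosb*, and the other libraries at 1.83 to 3.31.

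Textbook immediate early genes outside the 10 did not share one direction in MPPs. Of 45 such genes 43 passed the filter on expression, 5 were called lower and 0 higher, 22 had a log2 fold change below 0 and 21 above, and their median was -0.03. The called genes were the phosphatases *Dusp1*, at -2.38 on the log2 scale (standard error 0.462, limma adjusted p = 0.0454), and *Dusp2* (-1.29, standard error 0.216, limma adjusted p = 0.0301), which switch off MAP kinases, *Zfp36*, which destabilises mRNAs of the response (-1.62, standard error 0.292, limma adjusted p = 0.0377), and *Rhob*, a small GTPase (-1.42, standard error 0.0753, limma adjusted p = 0.00125). *Klf6*, a zinc finger factor, was the fifth, at -1.08 (standard error 0.140, limma adjusted p = 0.0150), named after its value was seen.

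*Dusp1* and *Zfp36* had the *Fos* pattern within the KO-labelled MPPs. *Dusp1* was 883.36, 843.98 and 906.81 FPKM in WT against 142.14, 90.99 and 367.9 FPKM in KO-labelled libraries, and *Zfp36* 2275.73, 2103.63 and 2213.55 FPKM in WT against 665.32, 479.2 and 1150.91 FPKM in KO-labelled ones. Both were highest, among KO-labelled libraries, in replicate 3. *Rhob* (482.31, 453.15 and 448.16 FPKM in WT against 181.07, 171.53 and 162.2 FPKM in KO-labelled libraries) showed no such difference among its KO-labelled libraries. The orphan nuclear receptor *Nr4a1* had the opposite pattern and was picked after its values were seen, at 875.25, 828.3 and 514.77 FPKM in WT against 1615.43, 1759.65 and 245.54 FPKM in KO-labelled MPPs. KO replicates 1 and 2 were above and KO replicate 3 below every WT library, and in CD115- CDPs *Nr4a1* was 1865.8, 1528.05 and 69.74 FPKM in WT against 1633.46, 1928.45 and 119.82 FPKM in KO-labelled libraries. Without KO replicate 3 of the MPPs, 5 of the 43 genes tested were called lower and 9 higher. Over all 12372 tested genes the numbers were then 548 lower and 366 higher, against 163 and 20 with every library. Without WT replicate 1, 2 or 3, or without KO replicate 2, 1 of the 43 was called lower, and without KO replicate 1, 2 were.

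In CD115- CDPs 0 of the 43 tested were called in limma (0 lower and 5 higher at an unadjusted p under 0.05, and 1 higher with the replicate block), with a median log2 fold change of 0.13. In CLPs 0 of 44 were called (6 lower and 5 higher at an unadjusted p under 0.05), with a median of 0.12. Without WT replicate 1 of the CLPs 3 were called lower and without KO replicate 2, 1 was called higher.

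**Figure D5:**
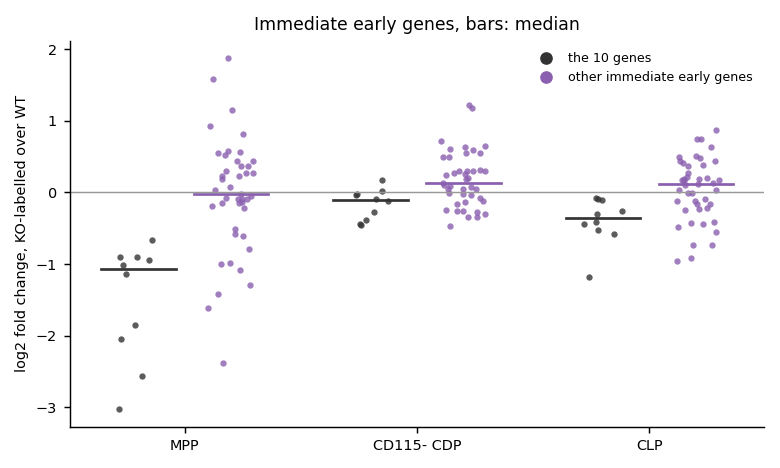
Log2 fold change of KO-labelled over WT libraries on log2(FPKM + 1) for the 10 genes (black) and for the other immediate early genes (purple, 43 or 44 per population); points are genes and horizontal lines medians. In MPPs the medians are -1.07 and -0.03, in CD115- CDPs -0.10 and 0.13, and in CLPs -0.36 and 0.12.

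Other relatives and regulators of the response were looked at through further gene lists. Of 17 further AP-1 and EGR genes 16 were tested in MPPs, of which 1 was called lower and 0 higher, namely *Egr4*, from 9.39, 8.85 and 6.40 FPKM in WT to 2.74, 2.74 and 1.0 FPKM in KO-labelled libraries. *Egr4* fell by 1.59 on the log2 scale (standard error 0.282, limma adjusted p = 0.0361), and the adjusted p was 0.0769 to 0.176 when any library but KO replicate 3 was left out. In CD115- CDPs 0 of 16 (2 lower and 0 higher at an unadjusted p under 0.05) and in CLPs 0 of 14 (0 lower and 2 higher) were called in limma. Of 27 genes upstream of the response, including *Srf*, the ELK factors and the RAS, RAF and MAP kinases, 0 were called in MPPs (6 lower and 0 higher at an unadjusted p under 0.05, limma) and in CD115- CDPs (2 and 0). In CLPs 1 was called lower, the kinase gene *Rps6ka1*, which fell by 1.01 on the log2 scale (standard error 0.161, limma adjusted p = 0.00425) and was under the minimum fold change when any of 4 single libraries was left out, at -0.92 without WT replicate 1, -0.94 without WT replicate 2, -0.97 without KO replicate 2 and -0.94 without KO replicate 3. *Srf*, picked after its values were seen, was 27.09 to 28.98 FPKM in WT against 25.62 to 27.43 FPKM in KO-labelled MPPs.

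Of 12 feedback inhibitors of MAP kinase signalling, 2 were called lower in MPPs, *Dusp1* and *Dusp2*, given above, and 1 higher. *Spry4*, which dampens receptor tyrosine kinase signals, rose from 0.51, 0.54 and 0.41 FPKM in WT to 1.87, 2.38 and 1.92 FPKM in KO-labelled MPPs, by 1.04 on the log2 scale (standard error 0.117, limma adjusted p = 0.00919). It was not called without WT replicate 1, 2 or 3 (adjusted p 0.0677 to 0.0738 in limma) or without KO replicate 2, where the log2 fold change was 0.96. In CLPs *Dusp4* rose from 3.11, 3.34 and 4.85 FPKM to 9.16, 8.47 and 10.69 FPKM (log2 fold change 1.14, standard error 0.162, limma adjusted p = 0.00239). Among CD115- CDPs 0 of 12 were called in limma (0 lower and 2 higher at an unadjusted p under 0.05), and with the replicate block 2 were called higher, *Dusp4* and *Dusp6*, named after their values were seen.

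Over all 18 libraries the interaction of population and genotype was tested in limma for 12421 genes, of which 2.45% passed at an adjusted p of at most 0.05. No p is given here for the 10 genes, whose log2 fold changes in the 3 populations are given above. Of the other immediate early genes 3 of 44 passed, *Socs3*, *Myc* and *Dusp2*, named after their values were seen and described in the closing observations. With the replicate block 12 of 44 passed.

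The genes whose log2(FPKM + 1) followed the mean standardized profile of the 10 most closely were looked for among 7779 genes averaging 5 FPKM or more in each population. After removal of population means over 18 libraries, the 5 closest were the chemokine genes *Ccl4* (r = 0.897) and *Ccl3* (0.847), *Ppp1r15a* (0.861), which reverses the stress block of translation, *Rcn3* (0.860) and the heat shock cochaperone *Dnajb1* (0.837). After removal of the means of the 6 groups, which leaves only differences between libraries of a group, they were *Ccrl2* (0.923), *Ccl4* (0.915), *Ppp1r15a* (0.914), *Hspa8* (0.866) and *Plk3* (0.864). *Ccl4* and *Ppp1r15a* were thus in both. Against the mean profile of the other 9, the correlation after removal of group means was 0.930 for *Btg2*, 0.922 for *Fosb* and 0.906 for *Ier2*, but 0.273 for *Egr3* and -0.097 for *Fos*. How each library was handled is not given in the labels, and these values describe likeness in this set of libraries only.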

How the data were processed

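RNA-seq of MPPs, CD115- CDPs and CLPs was used, with 3 WT and 3 KO-labelled libraries each. Per the methods, the authors cleaned single-end reads of 50 bases with SOAPnuke and used Bowtie2 2.2.5 and RSEM 1.2.12 to quantify genes, and HISAT2 2.0.4 with mm10 is named as well. For each gene and library the authors deposited an FPKM value. Read counts were not used here. Within each population, genes averaging 0.5 FPKM or more entered a linear model of log2(FPKM + 1), fitted with limma 3.58.1 (eBayes with a trend) in R 4.3.3, with two-sided p-values adjusted by Benjamini-Hochberg over all tested genes. This replaces count tests, and the scale understates changes of genes with low expression. The fits were tested on simulated data in which each library varied independently. Deviations shared by libraries of the same number were not simulated.

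The 10 genes, the gene lists and the tests were chosen with earlier results of these data known. Named genes are the 10, at most 4 called genes per list, population and direction with the largest change, the 5 most alike in profile, *Trim33* and the sort markers; others are marked in the text. The replicate numbers come from the labels. Same-numbered libraries deviated together in CD115- CDPs (correlations of 0.44 to 0.79) and CLPs (0.13 to 0.40), but not in every pair of MPPs (0.04 to 0.48), where a value above 0.1 in each was required. Pairs with different numbers ran from -0.78 to 0.66 in CD115- CDPs, -0.40 to 0.23 in CLPs and -0.49 to 0.26 in MPPs. The ranges thus overlap in each population. Depth was read from the steps of FPKM multiplied by transcript length, with 50-base reads. Alternatives were a pseudocount of 0.1, no filter, a filter at 5 FPKM, TPM, median ratio scaling, no trend, no minimum fold change, the replicate block and leaving out each library. Leaving out both libraries of a number was added after the data were seen.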

Additional observations from a re-analysis of the deposited data

Results flagged for a closer look

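The KO effect differed between the populations, in the limma interaction test over 18 libraries, for 5 genes of the lists of the early response and its regulators, named here because they passed. Genes of the erythroid, megakaryocyte and sort lists passed as well. Of these, *Hba-a1* is named in the report, with log2 fold changes of -6.19 in MPPs, -2.05 among CD115- CDPs and -2.92 among CLPs (limma adjusted p = 0.00954), and it did not pass with a pseudocount of 0.1 (0.115). *Socs3*, a feedback inhibitor of cytokine signals, differed by -0.98 on the log2 scale in MPPs, by 0.30 in CD115- CDPs and by 0.49 in CLPs (limma adjusted p = 0.00117), from 58.48 to 63.01 FPKM in WT and 28.11 to 34.12 FPKM in KO-labelled MPPs. In the same order *Myc* had log2 fold changes of -0.58, 0.60 and 0.74 (limma adjusted p = 0.0162), and *Dusp2* of -1.29, 0.50 and 0.21 (limma adjusted p = 0.0221). For *Dusp6*, a phosphatase of ERK, they were -0.46, 1.01 and 0.45 (limma adjusted p = 0.0340). For *Elk3*, a partner of SRF, they were -0.42, 0.08 and 0.55 (limma adjusted p = 0.0361), which did not pass with a pseudocount of 0.1 (0.0501) or after rescaling to TPM (0.0799). In MPPs the libraries of the KO label lay below WT for each of the 5 except that *Myc* in KO replicate 3, at 129.37 FPKM, was within the WT range.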

How the results depend on the processing

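Of the 10 genes, 9 kept the sign of their log2 fold change in MPPs under 13 alternatives (a pseudocount of 0.1, TPM, median ratio scaling, the replicate block, and leaving out 1 library or both of a number), 2 in CD115- CDPs and 6 in CLPs. Median ratio scaling moved the median of all tested genes in MPPs from -0.11 to -0.01, and each of the 10 stayed below 0 there, with *Egr1* at -2.90 and *Egr3* at -0.54. The number of the 10 called in MPPs was 7 with no minimum fold change, and 0 to 5 when single libraries or both libraries of a number were left out; in CLPs it was 1 with the replicate block and 0 to 1 with libraries left out. All genes called in MPPs numbered 183, 74 with a filter at 5 FPKM, 475 with no minimum fold change and 0 to 914 with libraries left out. In CD115- CDPs they numbered 13, 3 with no filter, 224 with the replicate block and 0 to 203 with libraries left out, and in CLPs 434, 283 with the filter at 5 FPKM and 1768 with no minimum fold change. The other immediate early genes called were 3 of 45 with no filter and 3 of 42 with the filter at 5 FPKM in MPPs (0 to 14 with libraries left out), 1 with the replicate block in CD115- CDPs (0 to 2) and 2 with no minimum fold change in CLPs (0 to 3). The interaction test passed for 304 genes, 1077 with the replicate block (12 of the other immediate early genes against 3) and 189 with a pseudocount of 0.1. *Egr2* was no longer called in MPPs with a pseudocount of 0.1, no filter or median ratio scaling, or when any single library was left out. Among the 10 genes the replicate block changed only the call of *Egr1* in CLPs. The cause of these differences was not tested. With 3 libraries a group, differences within the spread of the libraries could not be told from 0, and *Egr2* rests on about 46 to 291 reads a library.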
